A study of Mus musculus with 2 samples.

Results

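EC 1 is 1 of 3 endothelial populations that the authors named among single cells of the mouse aorta. Its members are the 425 cells, of 5451 in all (7.80%), whose deposited cell type is EC 1. The cells came from whole aortas of wild-type C57/BL6 mice aged 12 weeks, labelled female and kept on chow, with the perivascular fat removed and the vessel taken from its root to the femoral branching. Each aorta was digested with collagenases, hyaluronidase and DNase for 1 hour at 37 °C, red cells were lysed, and the messages of single cells were counted as unique molecular identifiers (UMIs) on the 10x droplet platform. The design holds a single group of 2 libraries, each from its own aorta, with no treatment arm, so the comparisons are between EC 1 and the other 9 named populations. Arch, thoracic and abdominal segments were processed together, and the position of a cell along the vessel is not known.

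Endothelium lines the lumen of every vessel. In a large artery it faces fast, pulsatile flow, releases nitric oxide, prostacyclin and endothelin to set the tone of the muscle beneath it, keeps clotting in check and admits leukocytes through adhesion molecules. Notch signalling and SoxF transcription factors are known to shape arterial identity, whereas capillary endothelium of fat and muscle is equipped to take up fatty acids, and lymphatic endothelium depends on the transcription factor Prox1.

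EC 1 had 148 cells in library 1 and 277 in library 2. These were 6.55% of the cells of library 1 (exact 95% interval 5.56 to 7.65) and 8.68% of those of library 2 (7.73 to 9.71), a mean of 7.61% ± 1.51 (SD, n = 2). Among the 3 endothelial populations, EC 1 made up 62.2% and 54.3% of the cells. The median EC 1 cell held 3286.5 UMIs from 1564 genes in library 1 and 4710 UMIs from 1933 genes in library 2, and the EC 1 sums held 606580 and 1496004 UMIs. The libraries have 12 barcodes in common, and 7 EC 1 cells carry such a barcode.

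The libraries do not match their labels in one respect. Both samples are labelled female, but Xist, the transcript that silences an X chromosome in female cells, had 7900 UMIs in 1948 of 2260 cells of library 1 and 5 UMIs in 5 of 3191 cells of library 2. The Y-linked Ddx3y had 0 UMIs in library 1 and 281 in library 2. In EC 1 itself, Xist had 325 UMIs in library 1 and 0 in library 2, and Ddx3y had 0 and 16. Values are therefore given for library 1 and library 2 in that order throughout, and both values were checked for each named result.

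Endothelial markers were present in EC 1, as a description, since the name rests on the same counts. Cdh5, the adhesion protein of endothelial junctions, was at 406 and 372 counts per 1000000 UMIs (CPM) in EC 1, against at most 14.3 in any non-endothelial sum, and was 6.82 ± 0.17 (SE) higher on the log2 scale than the mean of the 7 non-endothelial populations (edgeR's quasi-likelihood test, adjusted p = 2.89e-24). It was lower than in EC 2, at 941 and 1096 CPM, and near EC 3, at 373 and 401. Vwf, the platelet-tethering glycoprotein stored by endothelium, was at 1070 and 910 CPM in EC 1 and at 660 and 1362 in EC 3, so their ranges overlapped (log2 difference 0.07 ± 0.16, adjusted p = 0.878). The difference was called, with Vwf higher in EC 1, in 3 other settings: 0.60 (adjusted p = 0.0484) without library 2 of EC 1, 0.57 (adjusted p = 0.0117) without the cells of fewest and most UMIs, and 0.59 (adjusted p = 0.0203) with cells thinned to 1300 UMIs. Whether Vwf differed from the lymphatic-marked EC 3 therefore depended on the setting.

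Single EC 1 cells carried the markers together. At least 3 of Cdh5, Gkn3, Cytl1, Bmx, Vcam1 and Vwf were detected in 100% and 98.2% of EC 1 cells, and all 6 in 32.4% and 41.9%. In vascular smooth muscle cells (VSMC), at least 3 were detected in 1.18% and 1.42%. The other endothelial cells shared more of them, with at least 3 in 10.7% and 10.98% of EC 2 cells and in 17.6% and 48.3% of EC 3 cells, and no cell outside EC 1 held all 6. Gkn3 alone was detected in 81.1% and 79.4% of EC 1 cells and in 5.98% and 4.92% of VSMC. With every cell thinned to 1300 UMIs, these shares were 67.6% and 61.0% in EC 1 and 2.18% and 1.14% in VSMC, whose median cell held 4648 and 7154 UMIs before thinning. Cytl1 was detected in 99.3% and 99.6% of EC 1 cells and also in 27.4% and 52.8% of VSMC (8.25% and 14.7% thinned), so that its presence alone does not mark a cell. The cells were named by the authors from counts of these same cells, so marker levels describe the population and do not test its name.

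A gene was counted as led by EC 1 where its CPM there, with 5 CPM added to both sides, was at least 2-fold that of the highest of the other 9 populations in each library. This held for 62 genes, 0.591% of the 10488 tested, of which 39 were at 100 CPM or more in EC 1 and 7 at 1000 CPM or more. With library 1 alone the number was 100. The next-highest population was EC 3 for 25 of the 62 and EC 2 for 4, so the runner-up was often not endothelial. The genes just inside the threshold were Tek, Crispld1 and Lmo2, and those just outside were Fam107a, Degs2 and Pak4. At the other end, a single gene (0.00953%) was at least 2-fold below the lowest other population in each library: Cebpb, a stress-induced transcription factor, at 28.0 and 6.68 CPM.

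The gene furthest ahead of every other population was Gkn3, a member of the gastrokine family that is known as an arterial marker in the mouse. It was at 2176 and 1372 CPM in EC 1 and at a mean of 19.3 in EC 3, the next highest, and both EC 1 values lay far above every other sum. Klk10, a secreted serine protease of the kallikrein family, was at 335 and 470 CPM, with a mean of 5.92 in EC 2 as the next highest. Cytl1, a small secreted cytokine-like protein, was at 12468 and 15503 CPM, against 481 and 1597 in EC 3. The bases upstream of the starts of these leading genes are shown because these genes stand furthest apart from all other populations. They are the 250 bases before the RefSeq start (GRCm38.p6), 5′ to 3′ on the gene's strand. Capitals mark matches on either strand to the letters searched: CNGGAAG for ETS factors, CCACCC for KLF, AACAAT for SOX, AGATAA for GATA and TGGGAA for RBPJ, the Notch effector. For Gkn3 the window is chr6:87388936-87389185 on the minus strand, for Klk10 it is chr7:43780804-43781053 on the plus strand, and for Cytl1 it is chr5:37735269-37735518 on the plus strand.
Gkn3: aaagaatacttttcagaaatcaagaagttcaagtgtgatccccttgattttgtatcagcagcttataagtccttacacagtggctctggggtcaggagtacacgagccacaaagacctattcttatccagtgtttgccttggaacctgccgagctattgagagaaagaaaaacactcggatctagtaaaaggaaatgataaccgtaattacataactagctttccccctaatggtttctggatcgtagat
Klk10: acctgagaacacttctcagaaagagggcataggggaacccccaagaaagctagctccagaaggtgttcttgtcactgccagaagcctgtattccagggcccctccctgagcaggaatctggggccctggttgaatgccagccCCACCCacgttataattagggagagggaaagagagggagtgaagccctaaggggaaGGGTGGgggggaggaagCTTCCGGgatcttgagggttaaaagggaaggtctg
Cytl1: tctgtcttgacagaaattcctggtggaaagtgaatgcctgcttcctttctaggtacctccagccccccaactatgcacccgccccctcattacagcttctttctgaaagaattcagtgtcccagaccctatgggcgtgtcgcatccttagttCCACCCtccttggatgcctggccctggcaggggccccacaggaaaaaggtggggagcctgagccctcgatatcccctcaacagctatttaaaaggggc
None of the letters occurs in the Gkn3 window, the Klk10 window holds 1 ETS and 2 KLF matches, and the Cytl1 window holds 1 KLF match. Over the 45 led genes with a RefSeq promoter, KLF letters occurred in 22 (48.9%), against 33.9% of the promoters of 8021 tested genes and 27.7% of all 27025. RBPJ letters occurred in 14 (31.1%), against 20.2% and 21.5%. ETS letters occurred in 12 (26.7%), against 33.1% and 26.2%. SOX letters occurred in 2 (4.44%), against 4.82% and 9.65%, and GATA letters in 1 (2.22%), against 5.59% and 10.3%. ETS and RBPJ letters both contain GGAA but cannot match at the same GGAA. A match is a description of these letters and not a binding site.

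The other led genes named here have varied roles. Bmx, a cytoplasmic tyrosine kinase of arterial endothelium, was at 669 and 481 CPM and reached a mean of 74.3 in EC 3. Vcam1, which binds leukocyte integrins, was at 1373 and 961 CPM, and its next-highest mean was 139 in Fibro 1. Clu, the secreted chaperone clusterin, was at 4788 and 5358 CPM, against a mean of 921 in VSMC. In each of these genes both EC 1 values lay above all other sums. Isl1, a LIM-homeodomain factor known from the second heart field, was at 101 and 64.8 CPM, with a mean of 6.06 in Fibro 2. Nkx2-3, a homeobox factor known in endothelium of spleen and gut, was at 47.8 and 29.4 CPM and had no UMI in EC 2 or EC 3. Both factors were low in level, and EC 2 and EC 3 held little or none of their UMIs. Adra2a, an alpha-2 adrenergic receptor, was at 104 and 75.5 CPM, Efna5, an ephrin ligand, at 373 and 338, and Heg1, a receptor at endothelial junctions, at 1126 and 980. Calcium handling was represented by the pumps Atp2b2, at 46.2 and 51.5 CPM, and Atp2a3, at 170 and 217. The gap between EC 1 and the other populations is seen in the plot of gene levels by population.

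**Figure D1:**
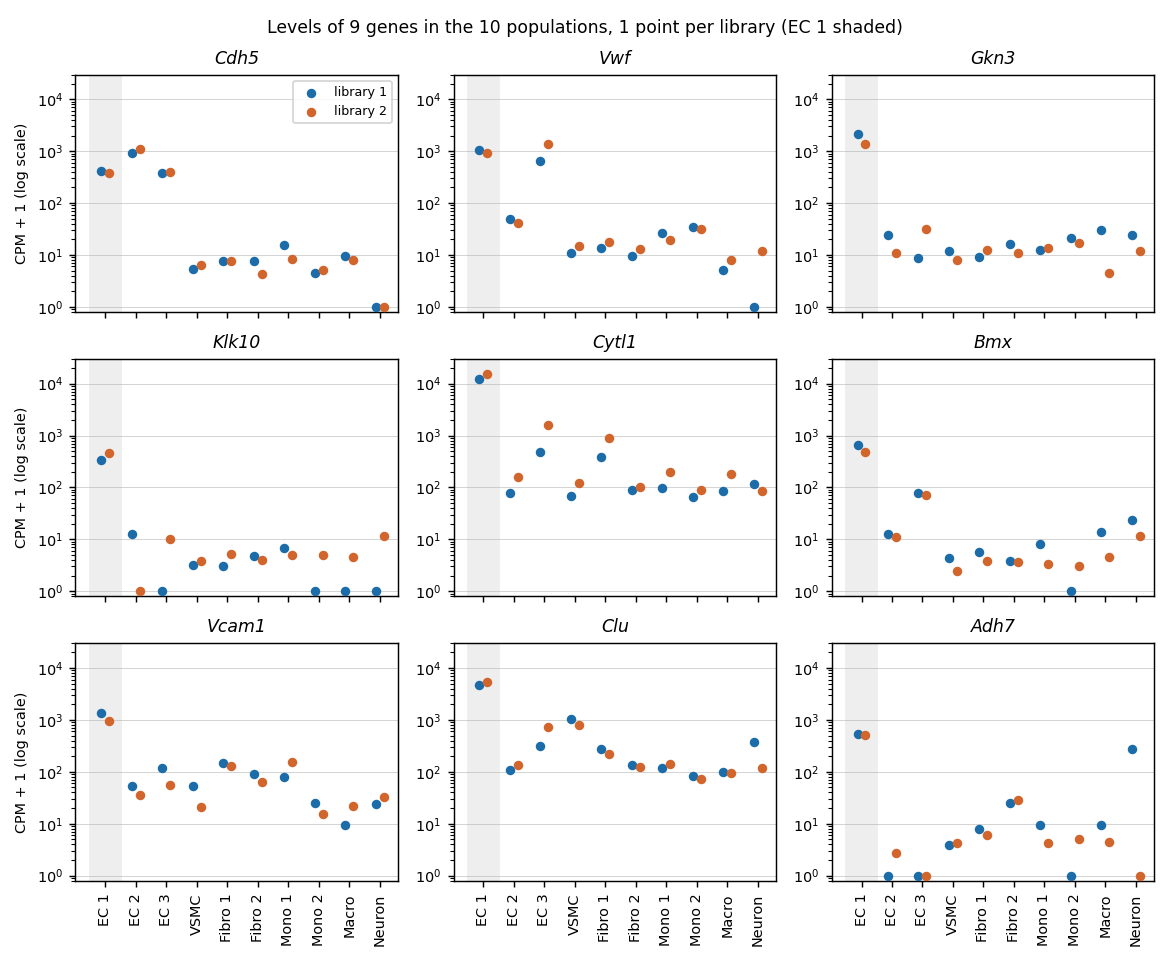
Levels of 9 genes in the 10 populations, with 1 point per library (blue, library 1; orange, library 2), as CPM + 1 on a log axis; EC 1 is shaded. Gkn3, Klk10, Cytl1, Bmx, Vcam1 and Clu are highest in EC 1 in both libraries, whereas Cdh5 is highest in EC 2 and Vwf is shared with EC 3. Adh7 is at 526 and 503 CPM in EC 1 and at a mean of 139 in Neuron, where it was detected in library 1 only.

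The comparison with non-endothelial cells asked which genes set EC 1 apart from the rest of the vessel wall. It set EC 1 against the mean of the log levels of VSMC, Fibro 1, Fibro 2, Mono 1, Mono 2, Macro and Neuron, each weighted equally. Of 10488 genes, 2181 (20.8%) were higher and 1001 (9.54%) lower at an adjusted p under 0.05, 30.3% in all. The adjusted p sets a difference against the spread left over all populations once the shared difference between the libraries is removed. It is not independent evidence, since the names rest on the same counts. Counts of list members below are read as descriptions for that reason. Of the genes called higher, 2168 were also higher within library 1 alone, and 990 of those called lower were also lower there. Without library 2 of EC 1 the calls numbered 1878, and with DESeq2 58.0% of the calls were higher, against 68.5% here.

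All 15 pan-endothelial genes tested were higher in EC 1, with a median log2 difference of 6.03 against 0.06 for all genes. Tek, the angiopoietin receptor, was at 425 and 397 CPM and 6.02 ± 0.16 higher (adjusted p = 1.78e-24). Ptprb, the phosphatase that restrains Tek, was at 1406 and 1603 CPM and 6.47 ± 0.14 higher (adjusted p = 9.3e-27). Icam2, an adhesion molecule of resting endothelium, was at 839 and 866 CPM and 6.14 ± 0.12 higher (adjusted p = 2.42e-27). From the matrix list, Mmrn2, an endothelial glycoprotein, was at 605 and 627 CPM and 7.56 ± 0.17 higher (adjusted p = 2.04e-25). These levels differed little between the libraries and lay above every non-endothelial sum.

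Of 20 arterial genes, 18 were higher, 0 lower and 2 did not pass, with a median of 4.34. Gja4, the gap-junction protein connexin 37, was at 481 and 466 CPM and 5.34 ± 0.17 higher (adjusted p = 2.5e-22). Gja5, connexin 40, was at 47.8 and 42.8 CPM and 5.90 ± 0.52 higher (adjusted p = 1.64e-10). Sox17, a SoxF factor, was at 170 and 235 CPM and 7.12 ± 0.22 higher (adjusted p = 2.37e-22). Notch4 was at 61.0 and 59.5 CPM and 4.27 ± 0.33 higher (adjusted p = 2.15e-12). The 2 values of each gene were close. The Notch target genes differed in level within EC 1, with Hey2 at 85.7 and 71.5 CPM and Hey1 at 13.2 and 6.68. The Notch ligand Dll4 was at 28.0 and 16.0 CPM. These are levels in EC 1 and not differences from the non-endothelial mean.

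Genes of flow response and vascular tone numbered 19 higher, 1 lower and 4 not passing out of 24 (median 3.16). Nos3, the endothelial nitric oxide synthase, was at 201 and 245 CPM and 6.42 ± 0.22 higher (adjusted p = 3.47e-21). Edn1, the precursor of the vasoconstrictor endothelin, was at 251 and 261 CPM and 5.90 ± 0.26 higher (adjusted p = 4.05e-18). Ace, which makes angiotensin II, was at 511 and 484 CPM and 3.60 ± 0.15 higher (adjusted p = 4.26e-19). Nos3, Edn1 and Ace were thus all higher in EC 1. Kcnn4, a calcium-activated potassium channel used in endothelial hyperpolarisation, was at 62.6 and 153 CPM and 5.08 ± 0.28 higher (adjusted p = 9.38e-16), although Mono 2 reached a mean of 112. Klf2, a flow-induced transcription factor, was at 2265 and 1457 CPM and 2.39 ± 0.14 higher (adjusted p = 2.55e-15), and Klf4 was at 605 and 398 CPM and 1.65 ± 0.17 higher (adjusted p = 1.37e-09). The gene called lower was Adm, the vasodilator peptide adrenomedullin, at 3.30 and 4.68 CPM (log2 difference -2.68 ± 0.64, adjusted p = 0.00138).

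Of 18 genes for leukocyte adhesion and chemokines, 12 were higher, 4 lower and 2 did not pass (median 2.93). Selp, P-selectin, which starts leukocyte rolling, was at 150 and 137 CPM and 7.17 ± 0.28 higher (adjusted p = 1.74e-19). F11r, a junctional adhesion molecule, was at 354 and 303 CPM and 4.94 ± 0.15 higher (adjusted p = 6.32e-23). Among the 4 lower genes, Cxcl12, which retains leukocytes through Cxcr4, was at 62.6 and 64.2 CPM in EC 1 and 1222 in Fibro 2 (log2 difference -1.12 ± 0.24, adjusted p = 0.000393), and Ccl2, a monocyte attractant, was at 1.65 and 1.34 CPM (-3.12 ± 0.86, adjusted p = 0.00498). The chemokine Cx3cl1, named after its value was seen, was higher in EC 1 (log2 difference 3.31), so chemokines did not share a direction. Of 14 coagulation genes, 10 were higher and 2 lower (median 1.18). Procr, the receptor that helps activate the anticoagulant protein C, was at 229 and 242 CPM and 4.82 ± 0.18 higher (adjusted p = 2.29e-20). Plat, the tissue plasminogen activator, was at 135 and 85.6 CPM and 1.45 ± 0.23 higher (adjusted p = 7.12e-06), below its mean of 345 in Fibro 2.

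Among 36 endothelial transcription factors, 22 were higher, 3 lower and 11 did not pass (median 2.38). Sox18 was at 98.9 and 183 CPM and 7.69 ± 0.33 higher (adjusted p = 6.16e-18). Gata2, a factor of endothelial and blood lineages, was at 135 and 179 CPM and 7.14 ± 0.25 higher (adjusted p = 1.08e-20). Nr2f2, a factor of venous and lymphatic identity, was at 6.59 and 10.0 CPM and lower than in the non-endothelial mean (-2.14 ± 0.41, adjusted p = 8.15e-05). Of 32 receptors and coreceptors, 20 were higher and 2 lower (median 2.52), and of 21 junction genes 18 were higher and 1 lower (median 2.69). Cldn5, the tight-junction claudin of endothelium, was at 859 and 1130 CPM and 7.55 ± 0.23 higher (adjusted p = 4.42e-22). Cgnl1, an adaptor protein of cell junctions, was at 345 and 426 CPM and 4.77 ± 0.17 higher (adjusted p = 2.7e-21).

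Matrix genes divided. Of 45, 20 were higher, 13 lower and 12 did not pass, and the median was -0.25. Eln, the elastin precursor, was at 1642 and 2314 CPM in EC 1, close to its mean of 1850 in Fibro 1, and was 2.90 ± 0.18 higher than the mean of the 7 populations (adjusted p = 6.28e-15). Mgp, an inhibitor of calcification and of bone morphogenetic proteins, was at 10830 and 15212 CPM, with a mean of 18173 in Fibro 1 (2.22 ± 0.18, adjusted p = 4e-12). Fbln2, a fibulin of elastic fibres, was at 455 and 527 CPM (3.79 ± 0.15, adjusted p = 4.92e-20), and Col8a1, a short-chain collagen of the subendothelium, at 148 and 164 CPM (4.22 ± 0.29, adjusted p = 2.98e-13). The fibrillar collagens were lower: Col1a1 was at 104 and 104 CPM (-2.08 ± 0.20, adjusted p = 5.65e-10) and Col3a1 at 109 and 160 CPM (-2.34 ± 0.21, adjusted p = 6.74e-11), against means of 5911 and 6289 in Fibro 1. For Eln the EC 1 and Fibro 1 values overlapped, whereas for both collagens they lay far apart.

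Secreted factors numbered 15 higher, 5 lower and 12 not passing of 32, with a median of 0.57, or 0.33 when genes at 0 are set at their bounds. Bmp4, a bone morphogenetic protein, was at 602 and 452 CPM and 6.11 ± 0.23 higher (adjusted p = 7.9e-20). Sfrp1, a secreted Wnt antagonist, was at 1235 and 901 CPM and 5.05 ± 0.14 higher (adjusted p = 6.95e-24), with a mean of 602 in Neuron. Dhh, a hedgehog ligand, was at 89.0 and 111 CPM and 6.79 ± 0.34 higher (adjusted p = 1.66e-16). Igfbp5, a binding protein of insulin-like growth factors, was at 39.6 and 26.1 CPM and lower (-2.49 ± 0.29, adjusted p = 2.24e-08). Of 14 integrin genes, 6 were higher and 5 lower (median 0.75). Itgb4, a partner in the laminin-binding integrin of hemidesmosomes, was at 77.5 and 84.2 CPM (5.22 ± 0.32, adjusted p = 1.55e-14), and Itga5, a subunit of the fibronectin receptor, at 158 and 136 CPM (3.26 ± 0.25, adjusted p = 4.68e-12).

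Genes of class I antigen presentation and the interferon response were higher in 23 of 29 cases and lower in 0 (median 1.52). H2-Q6, a non-classical class I gene, was at 269 and 396 CPM and 6.17 ± 0.18 higher (adjusted p = 7.28e-23). H2-Q7 was at 381 and 493 CPM and 4.76 ± 0.14 higher (adjusted p = 3.82e-23). The H2-Q genes are near-identical copies, so reads could be split between them. Immediate early genes ran the other way, with 2 higher and 13 lower of 21 (median -0.98). Fos, which rises quickly on tissue dissociation, was at 157 and 202 CPM in EC 1 (log2 difference -2.45 ± 0.21, adjusted p = 3.66e-11). Of 17 heat shock genes, 2 were higher and 10 lower (median -0.54). Of 22 genes for fatty acid and lipoprotein handling, 2 were higher, 8 lower and 12 did not pass (median -0.24). Apoe, the lipid carrier, was one of those higher, at 5963 and 5918 CPM (1.65 ± 0.12, adjusted p = 9.25e-13), below its mean of 22866 in Mono 1.

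**Figure D2:**
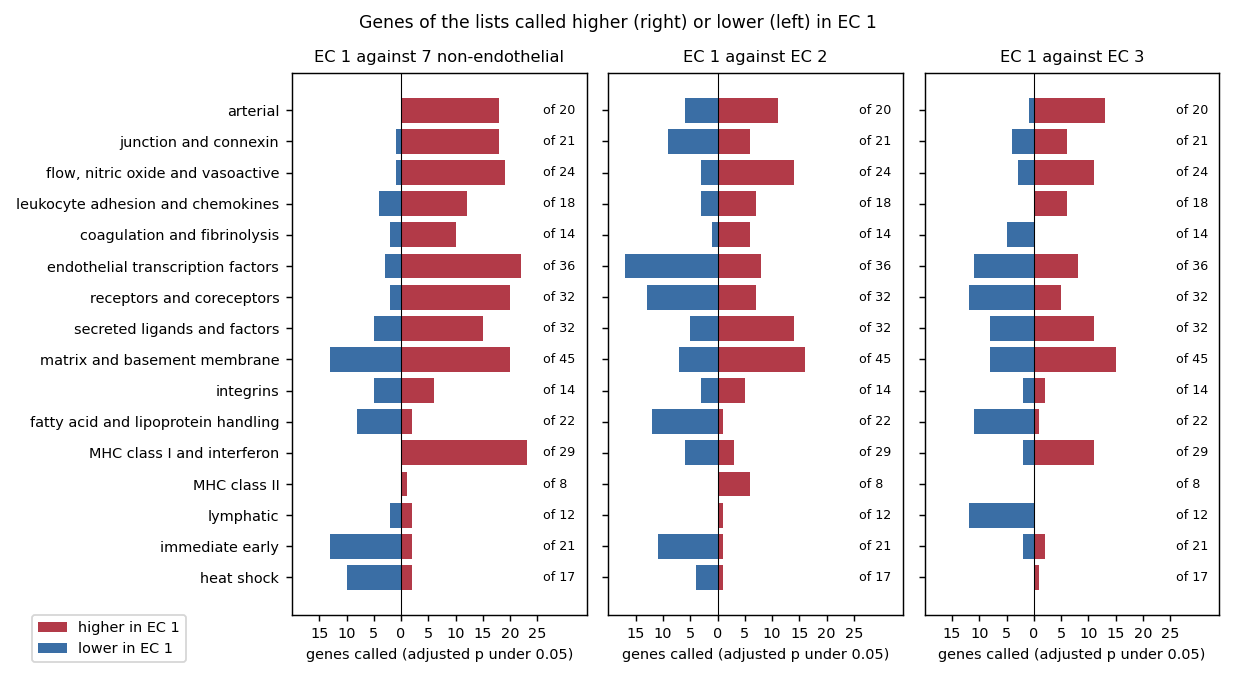
Genes of 16 lists called higher (red, to the right) or lower (blue, to the left) in EC 1 in 3 comparisons, at an adjusted p under 0.05; the number at the right of each row is the number of genes tested. Arterial, junction, flow and class I genes are mostly higher against non-endothelial cells, and the 12 lymphatic genes are all lower against EC 3.

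EC 3 is the endothelial population with lymphatic markers, and the comparison with it asked what separates EC 1 from that lineage. Of 10488 genes, 626 (5.97%) were higher in EC 1 and 592 (5.64%) lower, 11.6% in all. Within library 1 alone 625 and 583 of these kept their direction. The split of calls turned under other scaling, with 553 higher and 620 lower by relative log expression and 490 higher and 609 lower by DESeq2.

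All 12 lymphatic genes tested were lower in EC 1, with a median of -6.53 against 0.03 for all genes. Prox1, the lymphatic master factor, had no UMI in EC 1, which allows up to 1.43 CPM, and was at 132 and 179 CPM in EC 3, at least 116-fold higher. DESeq2 gave a log2 difference of -9.58 for Prox1 (adjusted p = 0.192). Reln, a secreted glycoprotein of lymphatic vessels, had no UMI in EC 1 and was at least 275-fold higher in EC 3. Mmrn1, a lymphatic matrix protein, had 1 UMI in EC 1 and was 2783-fold higher in EC 3, with a counting interval of 498 to 110116. Nr2f2 was at 621 and 444 CPM in EC 3 (log2 difference -5.60 ± 0.27, adjusted p = 5.31e-16), and Flt4, the receptor for the lymphatic growth factor Vegfc, was at 13.2 and 12.0 CPM in EC 1 and 404 and 222 in EC 3 (-4.31 ± 0.35, adjusted p = 3.06e-10). For each of these genes the ranges of EC 1 and EC 3 lay far apart.

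Of 20 arterial genes, 13 were higher in EC 1 than in EC 3, 1 was lower and 6 did not pass (median 1.84). Sox17 was at 170 and 235 CPM in EC 1 and at 0 and 15.4 in EC 3 (4.47 ± 0.39, adjusted p = 3.57e-10). Hey2 had 1 UMI in EC 3 and was 34.3-fold higher in EC 1, with a counting interval of 6.06 to 1362. Gja5 had none there and was at least 6.68-fold higher in EC 1. Outside the list, Isl1 had none in EC 3 and was at least 11.4-fold higher. Dll4 and Hey1 did not pass, at -0.92 ± 0.50 (adjusted p = 0.311) and -1.05 ± 0.82 (adjusted p = 0.549).

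Flow and tone genes numbered 11 higher, 3 lower and 10 not passing of 24 (median 0.87, or 0.80 with bounds). Ace was at 46.6 and 74.0 CPM in EC 3 (3.11 ± 0.28, adjusted p = 4.86e-10), and Edn1 at 7.76 and 86.3 (2.24 ± 0.33, adjusted p = 9.35e-06). The Nos3 difference was smaller, with EC 3 at 69.9 and 142 CPM (1.14 ± 0.24, adjusted p = 0.000996), and DESeq2 gave 1.18 (adjusted p = 0.135). Klf2, at 2484 and 1590 CPM in EC 3, overlapped with EC 1 (0.07 ± 0.21, adjusted p = 0.917), and Klf4 did too (0.08 ± 0.23, adjusted p = 0.923). Adm was lower in EC 1 (log2 difference -5.84 ± 0.35, adjusted p = 4.79e-14), with 210 and 317 CPM in EC 3.

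Sfrp1 was at 7.76 and 3.08 CPM in EC 3 and 7.97 ± 0.44 higher in EC 1 (adjusted p = 9.03e-15), and Bmp4 was at 15.5 and 117 (2.74 ± 0.30, adjusted p = 4.42e-08). Igfbp5 was at 2732 and 2709 CPM in EC 3 (-6.31 ± 0.32, adjusted p = 7.86e-16), and Ptn, a heparin-binding growth factor, at 241 and 878 (-4.17 ± 0.28, adjusted p = 6.51e-12). Secreted factors as a list were 11 higher and 8 lower of 32. Of 45 matrix genes, 15 were higher, 8 lower and 22 did not pass (median 0.36), among them Eln at 272 and 555 CPM in EC 3 (2.34 ± 0.28, adjusted p = 2.2e-07). No coagulation gene was higher in EC 1 and 5 of 14 were lower. Procr was at 202 and 284 CPM in EC 3 (0.10 ± 0.19, adjusted p = 0.845). Adh7, an alcohol dehydrogenase that oxidises retinol, was at 526 and 503 CPM in EC 1 and had no UMI in EC 3, which makes it at least 77.0-fold higher. Class I and interferon genes were 11 higher and 2 lower of 29, with H2-Q7 at 46.6 and 148 CPM in EC 3 (2.15 ± 0.23, adjusted p = 1.35e-08).

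EC 2 is the endothelial population with capillary markers. Of 10488 genes, 1162 (11.1%) were higher in EC 1 and 968 (9.23%) lower, 20.3% in all, and 1158 and 947 of these kept their direction within library 1 alone. Relative log expression gave 1057 higher and 1067 lower. Of 10 capillary genes, 1 was higher in EC 1 and 9 lower (median -7.54, or -6.92 with bounds). Of 22 genes for fatty acid and lipoprotein handling, 1 was higher and 12 lower (median -3.35, or -3.51 with bounds). Of 8 class II genes, 6 were higher and 0 lower (median 3.09, or 2.88 with bounds). The names rest on the same counts, so these list counts are descriptions. Arterial genes divided, with 11 higher and 6 lower of 20: Hey2 had 3 UMIs in EC 2 and was 19.3-fold higher in EC 1, with a counting interval of 6.48 to 94.5, but Dll4 was at 124 and 97.4 CPM in EC 2 (log2 difference -2.29 ± 0.37, adjusted p = 2.24e-05) and Hey1 at 76.9 and 92.3 (-3.19 ± 0.51, adjusted p = 1.75e-05). Sox17 was also lower in EC 1 (-0.86 ± 0.15, adjusted p = 4.18e-05), a call lost without library 2 of EC 1, at -0.78. EC 2 thus held more of the Notch ligand Dll4 and of Hey1, and EC 1 more of Hey2.

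Transcription factors were more often lower than higher in EC 1 than in EC 2, with 17 lower and 8 higher of 36 (median -0.32, or -0.51 with bounds). Receptors were 13 lower and 7 higher of 32. Robo4, an endothelial guidance receptor, was at 9.89 and 6.02 CPM in EC 1 and 130 and 123 in EC 2 (-3.96 ± 0.44, adjusted p = 3.51e-08), whereas Tek was at 118 and 171 CPM in EC 2 (1.50 ± 0.17, adjusted p = 3.06e-08). Junction genes were 6 higher and 9 lower of 21. The connexins went in opposite directions: Gja4 was at 94.7 and 35.3 CPM in EC 2 (3.37 ± 0.27, adjusted p = 1.47e-11), and Gja1, connexin 43, was at 16.5 and 5.35 CPM in EC 1 and 225 and 200 in EC 2 (-4.45 ± 0.39, adjusted p = 1.21e-10). The laminin-receptor integrins did the same, with Itga6 at 6.59 and 9.36 CPM in EC 1 and 231 and 210 in EC 2 (-4.51 ± 0.36, adjusted p = 1.41e-11) and Itgb4 at 0 and 5.04 CPM in EC 2 (4.51 ± 0.59, adjusted p = 5.03e-07). Dhh and the pleckstrin-family gene Plek2 had no UMI in EC 2 and were at least 26.7-fold and at least 24.0-fold higher in EC 1. Cdkn1a, the p21 inhibitor of cell division, was at 90.7 and 122 CPM in EC 1 and 858 and 1321 in EC 2 (-3.22 ± 0.24, adjusted p = 2.61e-12), and Cdkn1c, the p57 inhibitor, at 80.8 and 66.8 against 793 and 841 (-3.39 ± 0.15, adjusted p = 2.41e-17). Immediate early genes were 11 lower and 1 higher of 21. All 3 comparisons share the EC 1 sums, so their calls are not separate observations of EC 1.

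Markers of other cell types were low in EC 1 but not absent. All 14 smooth muscle markers had UMIs, and their summed level was 2892 and 1775 CPM in EC 1, against 47590 and 45289 in VSMC and 963 to 5659 over the other sums. All 15 fibroblast markers had UMIs, at 2514 and 2367 CPM in sum, against 61755 to 76014 in Fibro 1 and Fibro 2. All 16 macrophage and monocyte markers together came to 293 and 203 CPM, against 51513 and 47638 in Mono 1. Of 9 pericyte markers 7 had UMIs, at 109 and 81.6 CPM, and Notch3 and Higd1b had none. Lymphatic markers came to 186 and 211 CPM, with Prox1, Reln and Stab2 at 0, and capillary markers to 729 and 810. Each of these sums lay within the range of the populations to which the markers do not belong. Haemoglobin genes of red cells stood out, at 16590 and 5855 CPM in sum, but were at 1419 to 23392 CPM in every other population. The part of free RNA or of doublets in any result was not tested. Scrublet called 10 and 2 EC 1 cells doublets, and leaving called doublets out left 3223, 2191 and 1275 calls in the comparisons with non-endothelial cells, EC 2 and EC 3.

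**Figure D3:**
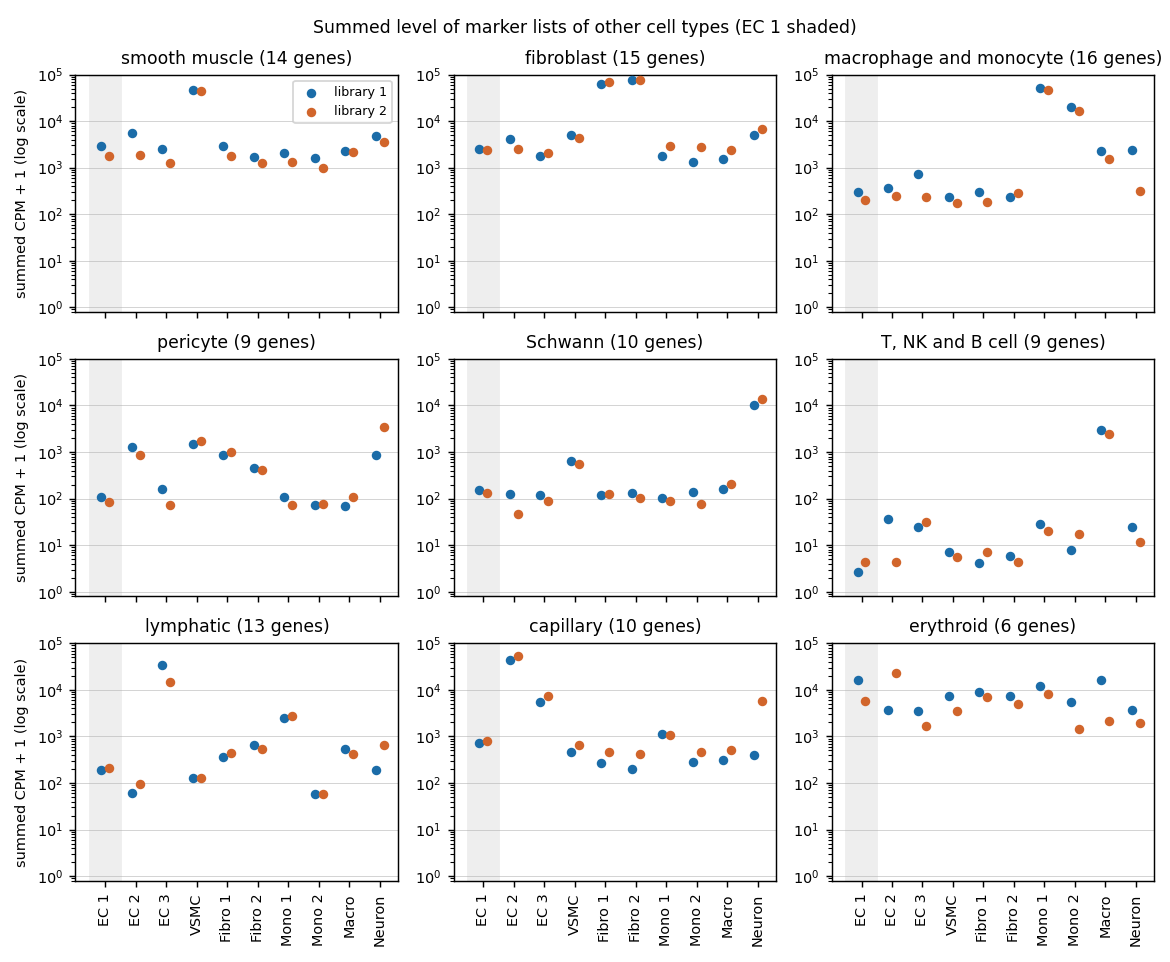
Summed CPM + 1 (log axis) of 9 marker lists in the 10 populations, with 1 point per library; EC 1 is shaded and the number in each title is the number of genes in the list (for T, NK and B cells the genes in the count table). Smooth muscle markers in EC 1 sum to 2892 and 1775 CPM against 47590 and 45289 in VSMC, and haemoglobin genes are present in all populations.

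EC 1 cells differed among themselves. Variation was measured for each gene as the variance of its Pearson residuals over cells, which is near 1 where cells differ by counting error alone. Among the 5093 genes with at least 0.1 UMI per cell in both libraries, the median was 1.05 and 1.07, and 147 (2.89%) reached 2 in both. The highest values were those of haemoglobin genes, at 471 and 481 for Hbb-bs. Malat1, a nuclear long noncoding RNA, followed at 65.7 and 71.4. Secreted and surface proteins came next, with Apoe at 34.4 and 31.0, Mgp at 24.3 and 42.7, Vcam1 at 23.6 and 11.4, and Pam, an enzyme that amidates secreted peptides, at 33.1 and 10.9. Gkn3, at 10.7 and 11.1, varied among the cells it marks. The tenth of EC 1 cells with the most Gkn3 held 45.7% and 44.8% of its UMIs, and no UMI was found in 18.9% and 20.6% of the cells. The tenth of cells with the most Thbs1, the matricellular protein thrombospondin 1, held 67.1% and 82.0% of its UMIs. For Apoe the tenth with the most held 38.3% and 39.3%.

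**Figure D4:**
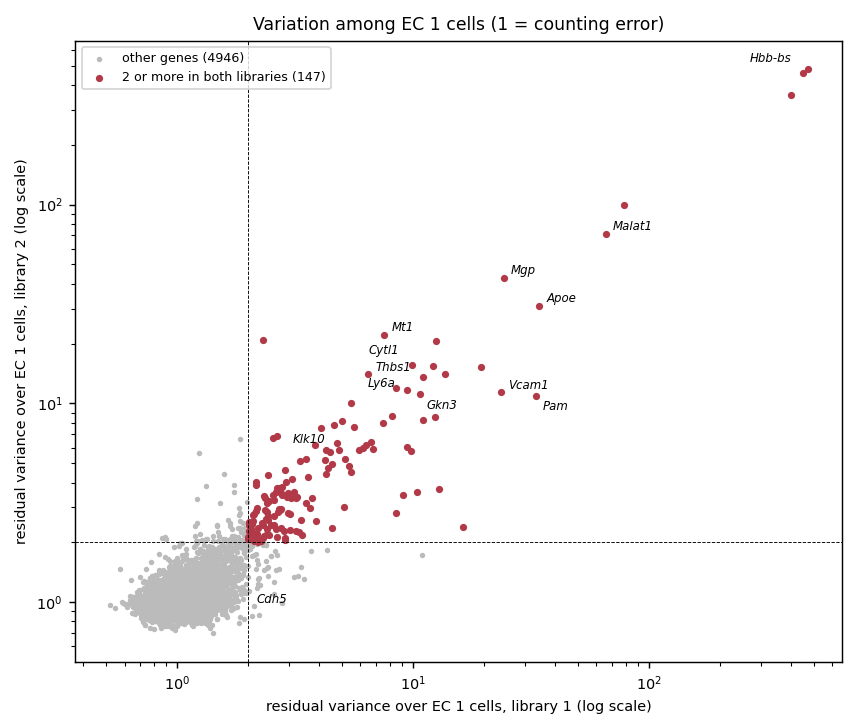
Pearson residual variance of 5093 genes over EC 1 cells, library 1 against library 2, both axes logarithmic; 1 is counting error and the dashed lines mark 2. The 147 genes at 2 or more in both libraries are red, and Gkn3, Vcam1, Apoe, Mgp and Thbs1 lie among them.

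The variable genes were compared pairwise over EC 1 cells, as Pearson correlations over 148 and 277 cells that share their library. The genes used as starting points here were chosen after their values were seen, the correlations are descriptions, and cells of a library are not replicates. Of 10731 pairs, 195 reached 0.3 in both libraries and 10 were at -0.3 or less in both. Ly6a, a surface protein also known as Sca-1, went with its neighbour Ly6c1 (0.69 and 0.69) and with Fxyd5 (0.50 and 0.52), Pthlh (0.34 and 0.37) and Cldn5 (0.34 and 0.41). Bmp4 went with Thbs1 (0.48 and 0.47), Apoe (0.48 and 0.46), the secreted 1500015O10Rik (0.41 and 0.47), Nrp1 (0.40 and 0.45) and Sfrp1 (0.36 and 0.32). Ly6a was inversely related to Sfrp1 (-0.40 and -0.29), Nrp1 (-0.29 and -0.28), Apoe (-0.28 and -0.26) and Bmp4 (-0.25 and -0.18). Thbs1 and 1500015O10Rik were not among the genes most inversely related to Ly6a. No score of either set of genes was computed. Cytl1 went with Klk10 (0.40 and 0.42) and Clu (0.38 and 0.39) and against Edn1 (-0.34 and -0.28). Cytl1 also went against the smooth muscle markers Tagln (-0.32 and -0.31) and Acta2 (-0.33 and -0.25), and the part of smooth muscle RNA in these relations was not tested. Gkn3 went with Adh7 (0.37 and 0.37) and Mgp (0.30 and 0.41). Klf2 went with Klf4 (0.35 and 0.45), Ier2 (0.41 and 0.30), Rasd1 (0.25 and 0.40), Sdpr (0.32 and 0.25) and Dusp1 (0.44 and 0.22). The position of each cell along the aorta is not in the data.

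The libraries themselves differed within EC 1, among other genes in those of the interferon response. Of 5177 genes with at least 50 EC 1 UMIs, 109 (2.11%) differed at least 2-fold, 26 (0.502%) higher in library 1 and 83 (1.6%) higher in library 2. Iigp1, an interferon-inducible GTPase, was at 119 and 514 CPM in EC 1, a log2 ratio of 2.20, while in VSMC the ratio was -0.44. It was detected in 21.6% and 55.2% of EC 1 cells, and in 10.1% and 32.5% with cells thinned to 1300 UMIs. Igtp, of the same family, was at 67.6 and 231 CPM in EC 1 (log2 ratio 1.85), with 2.29 in EC 2, and Irgm2 was at 23.1 and 88.9 CPM (1.98), with 2.46 in EC 2. Igtp and Irgm2 were therefore higher in library 2 in both EC 1 and EC 2, and Iigp1 had a ratio of 0.55 in EC 2.

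Class II antigen presentation followed in EC 1. H2-Ab1 was at 155 and 325 CPM (log2 ratio 1.16), and Cd74, the invariant chain, at 409 and 706 (0.89). The median log2 ratio of 29 class I and interferon genes was 0.66 in EC 1, and 9 of them were at least 2-fold higher in library 2 and 0 in library 1. In the other populations that median ran from -0.45 to 0.35, with 0.35 in EC 2 and 0.21 in EC 3. In EC 3, 7 of the 29 genes were at least 2-fold higher in library 2 and 4 in library 1. These numbers were 3 and 1 in EC 2, 4 and 6 in Macro, and 6 and 6 in Neuron. The median of 8 class II genes was 1.18 in EC 1, with 5 at least 2-fold higher in library 2, and from -0.66 to 0.17 elsewhere. Arterial, adhesion and immediate early genes had medians of -0.03, -0.02 and -0.19 in EC 1. Other differences were also seen outside the endothelium. Adipocyte genes were higher in library 2 in EC 1 (median 2.62) and in every other population (2.00 to 4.65). The metallothionein Mt1 was at 902 and 3311 CPM in EC 1 (log2 ratio 1.97), with ratios of 0.053 to 1.89 in the other populations. Haemoglobin genes were higher in library 1 in EC 1 (median -1.54) and had medians of -3.41 to 3.005 elsewhere, EC 2 alone being above 0. The libraries also differ in Xist and Y-linked genes as given above. With 1 EC 1 sum per library there is no test, and the mouse, its sex and the preparation cannot be told apart.

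**Figure D5:**
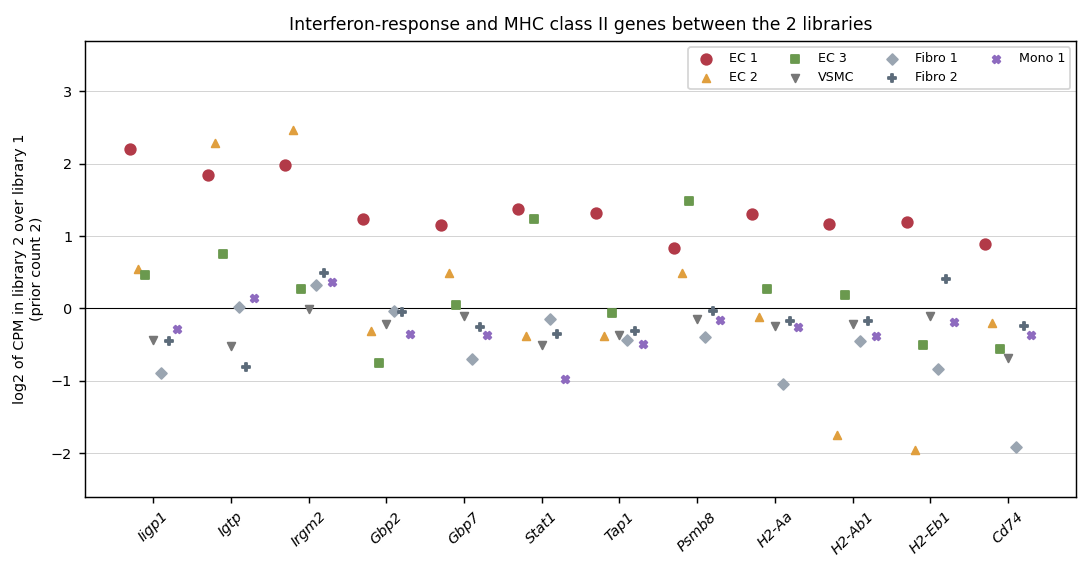
Log2 ratio of CPM in library 2 over library 1 (prior count 2) for 12 interferon-response and class II genes in EC 1 (red circles), EC 2, EC 3, VSMC, Fibro 1, Fibro 2 and Mono 1; Mono 2, Macro and Neuron are not drawn. The EC 1 points lie between 0.83 and 2.20, whereas VSMC and fibroblast points lie mostly below 0.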

How the data were processed

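Single cells of 2 mouse aortas on chow were counted on the 10x platform. The deposited table holds raw UMI counts of 16971 genes in 5451 cells. The submitters' processing notes name Cell Ranger 2.1. Build and gene models behind the counts are not given in the sources used here. Population names were taken from the authors' deposited annotation, and the barcode suffix gave the library, which no label ties to a sample title. Deposited cells held 1322 to 14968 UMIs.

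UMIs were summed per library and population (20 sums, at least 10 cells each). Genes passing filterByExpr (10488) were tested with edgeR 4.0.16 (quasi-likelihood, TMM, terms for library and population, residual degrees of freedom 9, Benjamini-Hochberg over all genes, called under 0.05). The same library supplies 1 sum of each population, so the library is the pairing block. The labels describe separate aortas. With the library as a term, p-values rest on the spread left over all populations, not on the shared difference between the 2 libraries. CPM scales each sum to 1000000 UMIs, and a log2 difference of a gene at 0 in some sums depends on the prior count. Pearson residual variance and correlations were computed per library, and called doublets came from Scrublet in scanpy 1.11.5. A fold against 0 UMIs uses 3 counts over the population, and intervals are exact at 95% and cover counting error only. The fit was tested on simulated counts. DESeq2 1.42.0, other scalings, thinning to 1300 UMIs, leaving out doublets, cells rich in other markers or each EC 1 sum were alternatives.

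Named genes are the 10 with the largest called fold in each direction and comparison, the 25 furthest led, up to 4 of each list with the largest fold, the 15 most variable, the 10 differing most between libraries in each direction, and fixed markers. Ly6a, Ly6c1, Fxyd5, Pthlh, Nrp1, Crispld1, Lmo2, Fam107a, Degs2, Pak4, Stab2, Tagln, Cx3cl1 and Cebpb fall outside this rule and were picked after their values were seen. Ier2, Rasd1, Sdpr and Dusp1 were also picked after their values were seen. The members and lists were chosen with earlier results of these data known.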

Additional observations from a re-analysis of the deposited data

How the results depend on the processing

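The fewest genes were called with cells thinned to 1300 UMIs: 1640 against non-endothelial cells, 1270 against EC 2 and 692 against EC 3. After thinning 6879 genes were tested, against 10488 in the main fit. The parts of depth and of the smaller gene set in the lower counts were not tested. Leaving out 1 EC 1 sum gave 1878 to 2732, 1446 to 1898 and 812 to 1062 calls, the lone sum being assumed to vary like the other populations. Without the replicate block (library not a term) the calls numbered 2858, 1755 and 959, within 1.5 times of the values with the block. Genes led by EC 1 numbered 90 to 100 in single libraries and 19 at 4-fold. Genes differing between libraries numbered 65 with a prior count of 10 and 40 of 1732 after thinning. Variable genes numbered 39 of 1787 after thinning, against 147 of 5093 without it. Of these 147, 131 were among the 1299 genes with at least 0.5 UMI per cell, so most were genes of higher level. Fewer genes reach the minimum after thinning, and the part of depth in the lower numbers was not tested. The share of EC 1 was 6.55% to 8.68% in single libraries.

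Of the results for single genes, 4338 values were rated the same, 152 lost the call, 57 gained it and 7 called ones reversed. A gene not called in the main fit was rated the same also where its sign turned, so such turns are not counted. Against EC 2, Clec3b became 0.37 without the cells of fewest and most UMIs, 0.014 after thinning and 0.15 without doublets, and F3 became 0.25 without doublets. Against EC 3, Fosb became 0.17 after thinning. Without the EC 1 cells richest in other cell types' UMIs, Hba-a1 became -0.095 against EC 3 and Hba-a2 -1.81 against non-endothelial cells. Haemoglobin genes are among the UMIs by which these cells were chosen, so a fall of these genes follows from the choice. The cause of the other reversals was not tested.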

Other observations

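Of 19 cell cycle genes tested, 3 were higher and 2 lower in EC 1 than in the non-endothelial mean. Over all genes tested, 20.8% were higher and 9.54% lower, so these counts are not read as a trait of the list. Mki67, a protein of dividing cells, had no UMI in EC 1 or EC 2 and was at 1.87 CPM over the non-endothelial populations, near the 1.43 CPM that 0 UMIs allow in EC 1, so no difference was detectable at this depth. Hmgb2, a chromatin protein of cycling cells, was at 23.1 and 23.4 CPM and lower than the non-endothelial mean (log2 difference -2.35 ± 0.24, adjusted p = 8.9e-10).

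The genes of epithelial and mesenchymal states named here did not share a direction. Krt18, a keratin of simple epithelia, was at 138 and 172 CPM in EC 1 and at a mean of 115 in Neuron (log2 difference 6.27 ± 0.32 against non-endothelial cells, adjusted p = 2.27e-16), while Krt19 had no UMI in EC 1. Of 16 genes of the endothelial-to-mesenchymal list, 5 were higher, 2 lower and 9 did not pass. The shares over all genes tested were 20.8% higher and 9.54% lower, and the list counts are not read as a result. Twist1 was at 26.4 and 25.4 CPM in EC 1 and had no UMI in EC 2 or EC 3, while Zeb2 was at 46.2 and 32.1 CPM and lower than in the non-endothelial mean (-2.30 ± 0.18, adjusted p = 3.41e-12).

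Retinoid and aldehyde metabolism was represented by Adh7 and by Aldh3a1, an aldehyde dehydrogenase, which was at 49.5 and 38.8 CPM in EC 1, with no UMI in EC 3 and a mean of 58.5 in Fibro 1.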
